A study of Homo sapiens with 12 samples.

Results

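Matrix metalloproteases (MMPs), ADAMTS proteases and their tissue inhibitors (TIMPs) were followed through cardiac differentiation of H1, a line of human embryonic stem cells that its label calls wild type. The genes were chosen by symbol alone (MMP, ADAMTS or TIMP followed by a number). This gave 47 of the 61806 genes in the table: 24 MMP, 19 ADAMTS and 4 TIMP genes. All cells had first been turned toward mesendoderm with CHIR99021, an activator of WNT signaling, followed by insulin. NP-IWP2 cells then stayed in static culture with IWP2, an inhibitor of WNT signaling. On Day 2, P-DF cells were detached, plated again and left in DF medium without IWP2, and P-IWP2 cells were passaged the same day and also given IWP2. RNA was sequenced from 2 libraries of each treatment on Day 12 and 2 on Day 16, 12 libraries in all, at 14885589 to 19176239 counted reads each. A static culture without IWP2 was not analysed here, so P-IWP2 against static cells differs in passaging, P-IWP2 against P-DF cells in IWP2, and P-DF against static cells in both at once. The paper reports adding Y27632, an inhibitor of ROCK, in the experiments that followed its dissociation tests. Passaging here may therefore include Y27632 and a change of cell density, which cannot be told apart from detachment. The labels do not say whether the 2 libraries of a group came from separate cultures, so each p-value measures the spread between these libraries, which may be technical.

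MMPs are zinc-dependent endopeptidases that cut collagens, gelatin, laminins and growth factor carriers. Most are secreted as inactive zymogens, and the membrane-type MMPs are held at the cell surface. ADAMTS proteases are secreted and bind matrix through thrombospondin repeats. Some cut the proteoglycans versican and aggrecan, others remove the amino-terminal propeptide of fibrillar procollagens, and ADAMTS13 cuts von Willebrand factor. TIMPs block the catalytic site of these enzymes, and TIMP2 also bridges MMP14 and pro-MMP2 so that MMP14 can activate MMP2. In the embryonic heart, versican-rich cardiac jelly lies between myocardium and endocardium and is cleared by ADAMTS proteases as the muscle grows.

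Of the 47 genes, 35 had enough counts to be tested: 13 MMPs, all 19 ADAMTS and TIMP1, TIMP2 and TIMP3. Counts were compared with edgeR's quasi-likelihood test, and a gene was called at a Benjamini-Hochberg adjusted p under 0.05 over all 19505 genes tested. A log2 fold change (log2FC) is printed with its standard error (SE). Levels are FPKM, reads per kilobase of exon scaled to the counted reads of the library, and can be compared between genes. The 12 genes that were not tested were MMP3, MMP7, MMP8, MMP9, MMP10, MMP12, MMP13, MMP17, MMP20, MMP26, MMP27 and TIMP4. MMP7, MMP8, MMP20 and MMP27 had a count of 0 in every library, and 3 counts, taken as the limit that a 0 allows, are at most 0.2015 CPM (scaled to library size). MMP9, the second gelatinase, reached 10 counts in a D12 NP-IWP2 library, and no other untested gene passed 4.

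The untested genes were clustered in the genome. On chromosome 11 (GRCh38), 9 MMP genes lie between 102520508 and 102955732: MMP7, MMP20, MMP27, MMP8, MMP10, MMP1, MMP3, MMP12 and MMP13. This array includes collagenases, MMP3 and MMP10 (stromelysins) and MMP7 (matrilysin), and of its 9 genes only MMP1 was tested. MMP1, an interstitial collagenase, stood at 0.61 and 0.80 FPKM in static cells on Day 12, at 2.78 in the D12 P-IWP2 replicate 5 library and between 0.02 and 0.46 in the other 9. The pair ADAMTS1 and ADAMTS5 shares 26835755 to 26967088 on chromosome 21, and the pair ADAMTS8 and ADAMTS15 shares 130404923 to 130476645 on chromosome 11. MMP23A and MMP23B on chromosome 1 are near-identical copies, so the split of reads between them is uncertain. Neither was called in any comparison with all libraries in the model, and MMP23B was called higher on Day 16 than on Day 12 in P-DF cells without the D12 P-IWP2 replicate 5 library (log2FC 2.12, adjusted p = 0.00528).

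RefSeq promoters (GRCh38.p14) were found for 27 of the 47 genes, 20 of them tested. The 250 bases before the RefSeq start were searched on both strands for the GC box GGGCGG, the TATA box TATAAA and the AP-1 site TGANTCA. A match is a description of the letters and not a shown binding site. The GC box was present in 18 of the 20 tested genes (90%), in 1 of the 7 untested genes (14.3%) and in 42.6% of 35116 promoters. The TATA box was present in 2 of 20 (10%), 5 of 7 (71.4%) and 10.7%, and the AP-1 site in 1 of 20 (5%), 3 of 7 (42.9%) and 6.57%. Where matches overlap, as GC boxes do in ADAMTS2, each was counted. The lines that follow show, 5′ to 3′ on the strand of the gene with the motifs in capitals, an enzyme at a high level in every library (MMP15, chr16:58025504-58025753, plus strand), enzymes that were lower in passaged cells (MMP14, chr14:22836335-22836584, plus strand, and ADAMTS2, chr5:179345462-179345711, minus strand), the enzyme that was higher on Day 16 (MMP24, chr20:35226440-35226689, plus strand), the inhibitor with the highest level in every library but D12 P-IWP2 replicate 5 (TIMP3, chr22:32801455-32801704, plus strand) and, for contrast, unexpressed or nearly unexpressed members of the chromosome 11 array (MMP7, chr11:102530748-102530997, and MMP10, chr11:102780629-102780878, both minus strand).
MMP15: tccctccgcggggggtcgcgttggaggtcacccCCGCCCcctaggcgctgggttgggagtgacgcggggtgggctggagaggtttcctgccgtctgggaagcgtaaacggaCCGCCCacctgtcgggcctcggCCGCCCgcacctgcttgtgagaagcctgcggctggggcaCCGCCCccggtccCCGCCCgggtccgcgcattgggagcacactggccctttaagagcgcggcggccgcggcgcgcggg
MMP14: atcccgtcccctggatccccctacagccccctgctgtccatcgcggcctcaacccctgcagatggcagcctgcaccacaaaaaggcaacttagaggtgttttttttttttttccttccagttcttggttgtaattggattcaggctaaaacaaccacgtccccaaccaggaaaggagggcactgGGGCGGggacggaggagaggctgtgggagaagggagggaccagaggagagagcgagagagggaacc
ADAMTS2: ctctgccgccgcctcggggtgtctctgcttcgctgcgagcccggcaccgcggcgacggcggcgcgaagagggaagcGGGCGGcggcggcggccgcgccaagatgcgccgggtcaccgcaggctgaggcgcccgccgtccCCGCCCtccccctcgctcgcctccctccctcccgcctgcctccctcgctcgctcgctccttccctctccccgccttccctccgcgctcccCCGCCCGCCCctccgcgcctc
MMP24: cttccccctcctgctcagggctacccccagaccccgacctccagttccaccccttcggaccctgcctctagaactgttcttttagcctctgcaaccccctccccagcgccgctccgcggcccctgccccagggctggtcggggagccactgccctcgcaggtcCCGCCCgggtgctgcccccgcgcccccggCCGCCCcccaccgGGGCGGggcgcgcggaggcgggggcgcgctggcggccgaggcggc
TIMP3: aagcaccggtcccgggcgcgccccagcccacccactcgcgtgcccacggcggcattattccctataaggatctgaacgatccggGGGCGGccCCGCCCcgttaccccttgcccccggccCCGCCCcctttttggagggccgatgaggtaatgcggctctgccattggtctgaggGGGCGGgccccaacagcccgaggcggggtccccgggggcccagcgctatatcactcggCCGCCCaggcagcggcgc
MMP7: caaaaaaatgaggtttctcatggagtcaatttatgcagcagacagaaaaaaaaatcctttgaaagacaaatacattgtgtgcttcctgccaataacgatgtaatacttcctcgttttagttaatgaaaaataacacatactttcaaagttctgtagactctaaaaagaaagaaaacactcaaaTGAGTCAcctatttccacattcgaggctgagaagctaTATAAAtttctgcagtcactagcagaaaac
MMP10: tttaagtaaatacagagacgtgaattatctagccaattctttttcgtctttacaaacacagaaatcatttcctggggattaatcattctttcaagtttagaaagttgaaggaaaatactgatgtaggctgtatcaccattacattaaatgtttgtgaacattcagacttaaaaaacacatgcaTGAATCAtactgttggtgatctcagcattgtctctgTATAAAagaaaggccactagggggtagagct
The first 5 hold GC boxes and neither of the other motifs. MMP7 and MMP10 hold an AP-1 site and a TATA box at nearly the same distances from the start, at -67 to -61 for AP-1 in both, and no GC box. GC content was 33.6% in MMP7 and 34.4% in MMP10, against 56.8% in MMP14 and 72.4% to 80.0% in the other 4.

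The D12 P-IWP2 replicate 5 library stood apart from its partner, replicate 6, and is named wherever it decides a value. A fit without either of the pair rests on the other library alone for that group. Its p-values then do not measure any spread within D12 P-IWP2 cells. The spread of the pair no longer enters the model, and more of all genes were called in most comparisons. Its markers of fibroblasts summed to 672.80 FPKM, against 31.59 in replicate 6, and its epicardial markers to 139.90 against 0.76. Its cardiomyocyte markers summed to 2129.71 against 4389.64. Its endothelial markers summed to 19.21 against 232.68, a gap set by KDR (11.16 against 232.51). The endothelial markers CDH5 (2.6 against 0.03) and ESAM (2.72 against 0.1) went the other way. Among the members it was high for ADAMTS3 (37.18 against 6.74 FPKM), ADAMTS9 (48.98 against 11.20) and ADAMTS6 (10.51 against 0.67), and low for TIMP3 (26.01 against 85.36). These genes at 37.18, 48.98 and 10.51 FPKM were above every other library, where the highest values were 7.26, 17.29 and 2.16. The map of all tested members by library shows that library as a column unlike its neighbour.

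**Figure D1:**
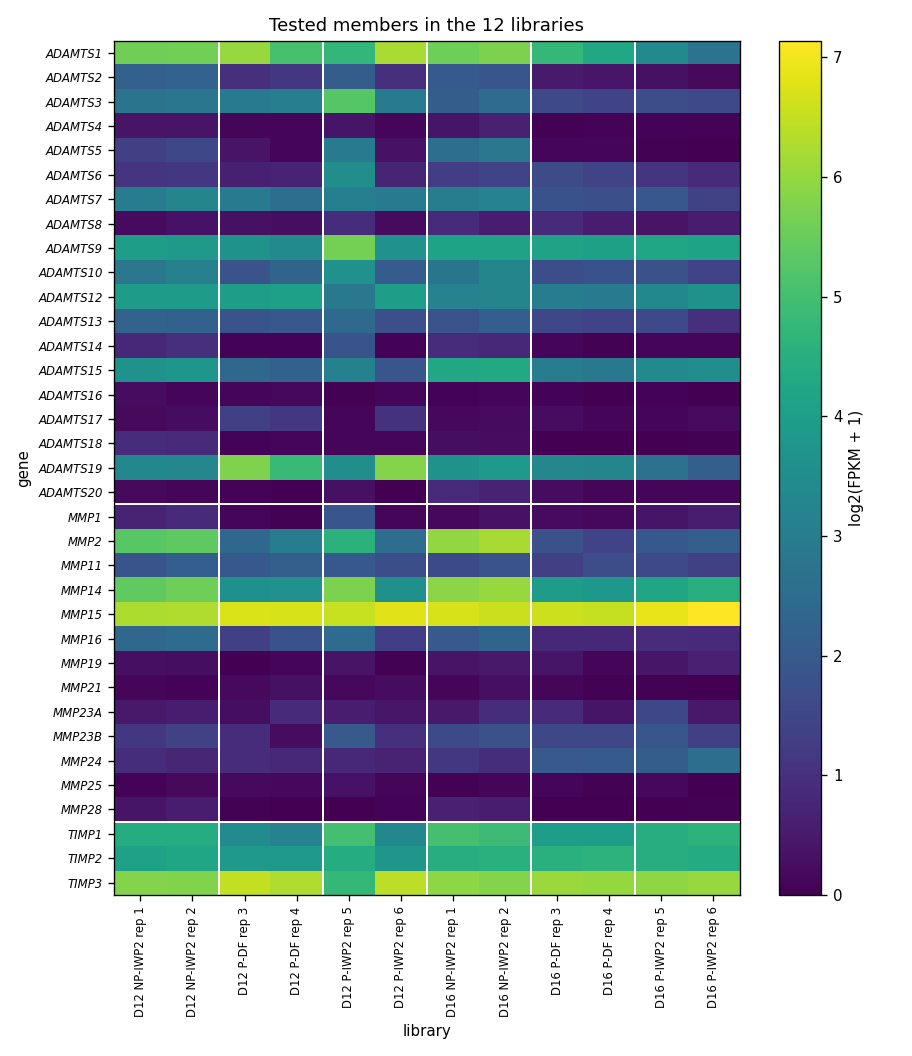
Levels of the 35 tested members as log2(FPKM + 1), 1 row per gene and 1 column per library; white lines separate the groups and the families. MMP15 and TIMP3 are bright across most columns, MMP2 and MMP14 are bright mainly in static cells, and the D12 P-IWP2 replicate 5 column differs from replicate 6, as at ADAMTS3 (37.18 against 6.74 FPKM) and TIMP3 (26.01 against 85.36 FPKM).

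The summed level of the MMP family was lower in most passaged libraries, with MMP2 and MMP14 low and MMP15 high. MMP genes summed to 166.17 and 175.52 FPKM in static cells on Day 12, to 127.90 and 129.67 in P-DF cells, and to 182.31 (replicate 5) and 133.54 (replicate 6) in P-IWP2 cells. On Day 16 the sums were 233.10 and 244.54, 121.94 and 113.39, and 150.49 and 175.61. Both passaged groups lay below the static libraries on Day 16 with no overlap. ADAMTS genes summed to 131.76 and 147.74 FPKM in static cells on Day 16, to 77.60 and 66.85 in P-DF cells and to 62.04 and 55.58 in P-IWP2 cells. On Day 12 they overlapped, at 128.24 and 133.06 in static and 110.80 to 184.23 in passaged libraries. TIMP genes were steadier, between 92.06 and 112.57 FPKM in every library but D12 P-IWP2 replicate 5, at 77.58. The ratio of summed TIMP to summed MMP level was therefore 0.435 to 0.554 in the 4 static libraries and 0.617 to 0.894 in the passaged libraries, except for 0.426 in that replicate 5. This ratio compares RNA levels and does not measure enzyme activity.

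**Figure D2:**
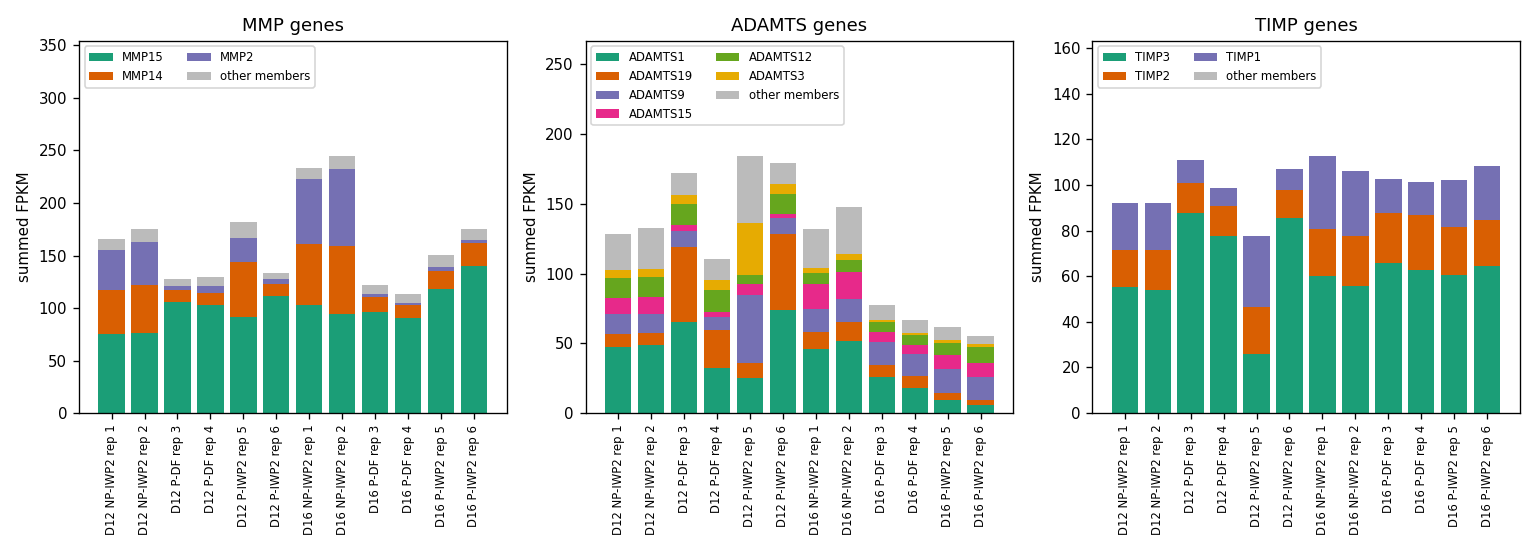
Summed FPKM of the MMP, ADAMTS and TIMP genes in each of the 12 libraries, with 1 bar per library and the most abundant genes in colors. On Day 16 the MMP2 and MMP14 layers nearly vanish or shrink in passaged cells (MMP sums of 113.39 to 175.61 against 233.10 and 244.54 in static cells) while the MMP15 layer stays.

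On Day 16, passaged cells had much less RNA of the gelatinase MMP2, of MMP16 and of a group of matrix-cutting ADAMTS genes than static cells, and more of MMP24. In P-DF cells 11 of 35 members were called (31.4%, against 15.3% of all genes tested), 10 lower (background 9.86%) and 1 higher (background 5.39%). In P-IWP2 cells 12 were called (34.3%, against 17.1%), 10 lower (background 9.95%) and 2 higher (background 7.15%). The median log2FC of the 35 was -0.81 for P-DF and -0.62 for P-IWP2 cells, beside -0.01 and -0.03 over all genes. The 2 comparisons use the same static libraries, so they are not independent. Without D12 P-IWP2 replicate 5 the counts were 20 (background 34.1%) and 22 (background 36.4%). Without replicate 6 in its place they were 20 (background 34.1%) and 21 (background 36.4%). The counts also rested on the Day 16 libraries. In both comparisons they fell when any 1 of the Day 16 libraries compared was left out. The calls over all genes tested fell in the same fits.

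**Figure D3:**
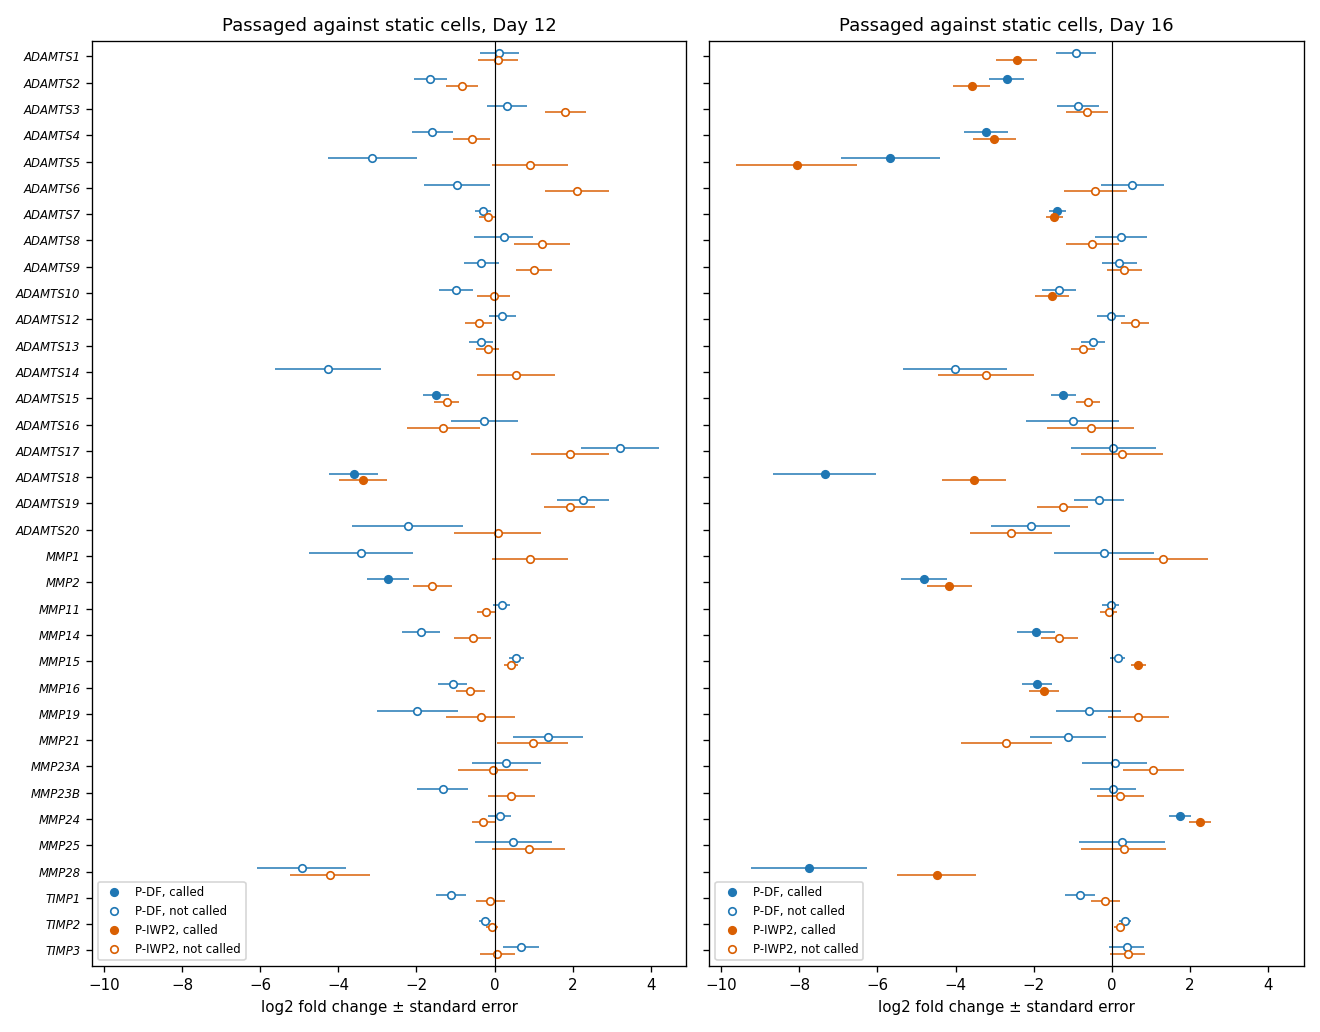
Log2 fold change of each tested member in P-DF (blue) and P-IWP2 (orange) cells against NP-IWP2 cells on Day 12 (left) and Day 16 (right), from the model of all 12 libraries; bars are standard errors and filled points passed an adjusted p of 0.05. On Day 16 the filled points at MMP2 lie at -4.81 and -4.16 and those at MMP24 at 1.74 and 2.25; fitted values of genes with a group near 0 counts (such as ADAMTS18 and MMP28) depend on the model's prior count.

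MMP2 (ENSG00000087245, chr16:55389700-55506691), which degrades gelatin and basement membrane collagen, had the highest static level of the members called lower on Day 16. It stood at 62.03 and 73.32 FPKM in static cells, at 2.39 and 1.71 in P-DF cells and at 2.87 and 3.35 in P-IWP2 cells. All 4 passaged libraries were far below the static ones. The change was called in P-DF cells (log2FC -4.81, SE 0.592, adjusted p = 0.00144) and in P-IWP2 cells (log2FC -4.16, SE 0.57, adjusted p = 0.00234). On Day 12, MMP2 was at 38.35 and 40.58 FPKM in static, 4.18 and 7.13 in P-DF, and 22.97 (replicate 5) and 4.85 (replicate 6) in P-IWP2 cells. Every passaged library was again below the static ones, with replicate 5 the closest. The Day 12 change was called in P-DF cells (log2FC -2.72, SE 0.534, adjusted p = 0.0283), where it lost its call without any of the Day 12 static, Day 12 P-DF or Day 16 static libraries. In P-IWP2 cells the log2FC was -1.59 (adjusted p = 0.218), or -2.93 with replicate 6 alone.

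The membrane-type enzymes did not move together. MMP14 (ENSG00000157227, chr14:22836560-22849041), the activator of pro-MMP2, stood at 58.39 and 64.78 FPKM in static cells on Day 16, at 14.29 and 13.0 in P-DF cells and at 17.85 and 21.83 in P-IWP2 cells. The passaged libraries lay below the static ones with no overlap. The change was called in P-DF cells (log2FC -1.94, SE 0.485, adjusted p = 0.0277). In P-IWP2 cells it was not called (log2FC -1.35, SE 0.476, adjusted p = 0.081), but it was in the fit without D12 P-IWP2 replicate 5. On Day 12, MMP14 was at 41.46 and 45.88 FPKM in static and 11.03 and 11.32 in P-DF cells, with 52.11 in P-IWP2 replicate 5 and 11.04 in replicate 6. The P-IWP2 pair therefore spanned the static values. Neither Day 12 change was called, at a log2FC of -1.88 (adjusted p = 0.0648) for P-DF and -0.56 (adjusted p = 0.76) for P-IWP2 cells. Without replicate 5 the values were -1.88 and -1.89, the second from replicate 6 alone against the static libraries.

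MMP16, another membrane-type enzyme, was at 2.99 and 3.91 FPKM in static cells on Day 16, at 0.78 and 0.77 in P-DF cells and at 0.89 and 0.82 in P-IWP2 cells. It fell in both passaged groups (log2FC -1.91, SE 0.387, adjusted p = 0.0123 in P-DF cells). The value for P-IWP2 was close (log2FC -1.73, SE 0.383, adjusted p = 0.0167). On Day 12 it was at 4.35 and 4.68 FPKM in static, 1.56 and 2.49 in P-DF, and 4.66 (replicate 5) and 1.51 (replicate 6) in P-IWP2 cells, and no Day 12 change was called. MMP15, a membrane-type enzyme too, was the most abundant MMP in every library. It was at 75.28 and 76.42 FPKM in static, 105.73 and 102.98 for P-DF and 91.86 and 111.47 for P-IWP2 cells on Day 12, and at 102.88 and 94.06, 96.32 and 90.16 and 117.9 and 139.95 on Day 16. The passaged libraries were above the static ones on Day 12, and on Day 16 the P-IWP2 libraries were. On Day 16 it was called in P-IWP2 cells alone (log2FC 0.67, SE 0.191, adjusted p = 0.0419), and it was lost when libraries were scaled by total counts (log2FC 0.39, adjusted p = 0.0722).

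MMP24 (ENSG00000125966, chr20:35226690-35276998), a membrane-type enzyme best known from the nervous system, had the largest rise of the members called higher on Day 16. It was at 1.21 and 0.91 FPKM in static cells on Day 16, at 3.01 and 3.06 in P-DF cells and at 3.34 and 4.97 in P-IWP2 cells. The 4 passaged libraries lay above the other 8, and the 6 Day 12 libraries were between 0.61 and 0.9 FPKM. The Day 16 change was called in P-DF cells (log2FC 1.74, SE 0.277, adjusted p = 0.00464) and in P-IWP2 cells (log2FC 2.25, SE 0.279, adjusted p = 0.00143). On Day 12 it was not called (log2FC 0.13, SE 0.287, adjusted p = 0.819 in P-DF cells, and a log2FC of -0.29 with adjusted p = 0.816 in P-IWP2 cells). MMP24 overlaps genes on the opposite strand: MMP24OS (2.19 to 3.26 FPKM), ENSG00000279253 (0.79 to 2.41) and ENSG00000261582 (0.12 to 1.54). The strand setting of the counting is not given in the sources used here, so reads from the overlaps cannot be told apart.

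MMP28, a secreted enzyme also called epilysin, was close to absent after passaging. Its counts were 18 and 26 in static cells on Day 12 and 34 and 23 on Day 16, against 0 to 2 in each of the 8 passaged libraries. On Day 16 P-DF cells held 0 counts in both libraries, at least 18.4-fold lower than static cells with 3 counts over the group as the floor (adjusted p = 0.0122). P-IWP2 cells held 2 counts, with a static to passaged ratio of 30.2 (95% counting interval 7.99 to 255, adjusted p = 0.021). The intervals and floors cover counting error only. The remaining tested MMPs were not called on either day: MMP11 (stromelysin 3) was at 1.54 to 3.44 FPKM over the 12 libraries, MMP19 at 0.01 to 0.59, MMP21 at 0 to 0.24, MMP23A at 0.2 to 1.9, MMP23B at 0.17 to 3.02 and MMP25 at 0.01 to 0.28.

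**Figure D4:**
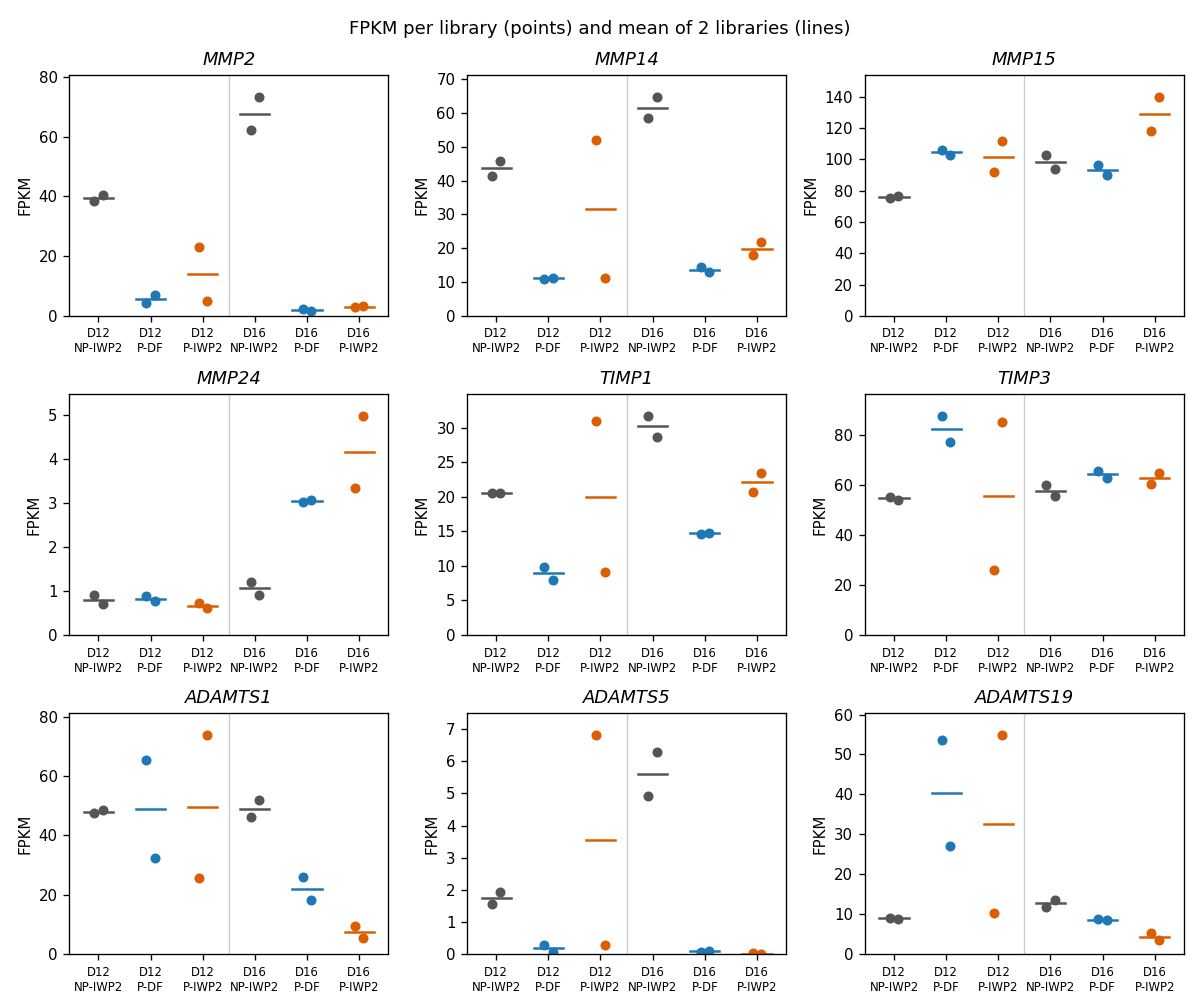
FPKM of 9 members in each library, by treatment and day; each point is 1 library and each horizontal line is the mean of the 2 libraries. MMP2 on Day 16 is at 62.03 and 73.32 in static cells and at 1.71 to 3.35 in the passaged libraries, and MMP24 is higher only in the Day 16 passaged libraries (3.01 to 4.97).

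Among the ADAMTS enzymes that cut proteoglycans, ADAMTS5 showed the widest separation. ADAMTS5 (ENSG00000154736, chr21:26917922-26967088), an aggrecan- and versican-cutting enzyme, was at 4.93 and 6.29 FPKM in static cells on Day 16, at 0.08 and 0.1 in P-DF cells and at 0.03 and 0 in P-IWP2 cells. The counts behind these values were 919 and 987, 13 and 18, and 6 and 0. Both changes were called, in P-DF cells (log2FC -5.67, SE 1.26, adjusted p = 0.0181) and in P-IWP2 cells (log2FC -8.07, SE 1.54, adjusted p = 0.00921). On Day 12 ADAMTS5 was at 1.55 and 1.92 FPKM in static and 0.29 and 0.08 in P-DF cells. The P-IWP2 libraries lay on either side, at 6.81 (replicate 5) and 0.28 (replicate 6).

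ADAMTS4, a related aggrecanase at a low level, had 63 and 94 counts in static cells on Day 16, 5 and 9 in P-DF cells and 7 and 10 in P-IWP2 cells. The groups did not overlap, and both changes were called (log2FC -3.22, SE 0.559, adjusted p = 0.00646 in P-DF cells). The value for P-IWP2 was close (log2FC -3.01, SE 0.545, adjusted p = 0.00735). ADAMTS15, which also cuts versican and aggrecan, was at 17.95 and 19.24 FPKM in static cells on Day 16, at 7.03 and 6.35 in P-DF cells and at 9.5 and 10.4 in P-IWP2 cells. All passaged libraries were lower, and the change was called in P-DF cells on Day 16 (log2FC -1.24, SE 0.315, adjusted p = 0.0293) and on Day 12 (log2FC -1.50, SE 0.321, adjusted p = 0.037). The Day 16 value for P-IWP2 missed the threshold (log2FC -0.62, adjusted p = 0.195). Its Day 12 levels were 11.4 and 12.45 FPKM in static, 4.23 and 3.68 for P-DF and 7.87 and 2.76 for P-IWP2 cells.

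ADAMTS1 (ENSG00000154734, chr21:26835755-26845409), a versican-cutting enzyme of the developing heart, differed by day. On Day 12 it was at 47.44 and 48.62 FPKM in static, 65.28 and 32.42 for P-DF and 25.52 and 73.82 for P-IWP2 cells, so the groups overlapped. On Day 16 it was at 46.1 and 51.96 in static, 25.93 and 18.31 for P-DF and 9.42 and 5.61 for P-IWP2 cells, with every passaged library below the static ones. The Day 16 change was called in P-IWP2 cells (log2FC -2.44, SE 0.535, adjusted p = 0.016) and not in P-DF cells (log2FC -0.92, SE 0.51, adjusted p = 0.253). ADAMTS9, another versican-cutting enzyme, was within 15.78 to 17.29 FPKM in all 6 Day 16 libraries and within 9.39 to 14.69 on Day 12, apart from 48.98 in P-IWP2 replicate 5. ADAMTS20, of the same branch, was at 0 to 0.81 FPKM and was highest in static cells on Day 16, at 0.81 and 0.6. ADAMTS8 was at 0.15 to 0.91 FPKM and was not called.

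The procollagen N-proteinases, which trim fibrillar procollagens, were ADAMTS2, ADAMTS3 and ADAMTS14. ADAMTS2 was at 3.03 and 2.75 FPKM in static cells on Day 16, at 0.42 and 0.34 in P-DF cells and at 0.26 and 0.14 in P-IWP2 cells. It fell in both groups (log2FC -2.69, SE 0.448, adjusted p = 0.00549 in P-DF cells). The fall in P-IWP2 cells was also called (log2FC -3.59, SE 0.474, adjusted p = 0.00193). On Day 12 it was at 3.54 and 3.72 in static and 0.94 and 1.24 in P-DF cells, with 3.3 in P-IWP2 replicate 5 and 0.98 in replicate 6. ADAMTS14 was at 0.87 and 0.78 FPKM in static cells on Day 16 and at 0.02 to 0.07 in the 4 passaged libraries. These groups did not overlap, yet neither change was called (adjusted p = 0.0729 for P-DF and 0.1 for P-IWP2 cells). On Day 12 it was at 0.74 and 0.97 in static and 0.04 and 0.05 in P-DF cells, with 2.65 in P-IWP2 replicate 5 and 0.05 in replicate 6. ADAMTS3, the most abundant of these enzymes on Day 12, was at 3.31 and 4.62 in static cells on Day 16 and at 1.71 to 2.23 in passaged cells, with no call.

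Of the other ADAMTS genes, ADAMTS7, ADAMTS10 and ADAMTS18 were called lower on Day 16. ADAMTS7, which cuts cartilage oligomeric matrix protein, was at 6.98 and 7.91 FPKM in static cells, 2.47 and 2.33 in P-DF cells and 2.8 and 1.64 in P-IWP2 cells. The groups did not overlap, and the change was called in P-DF cells (log2FC -1.40, SE 0.219, adjusted p = 0.00425) and in P-IWP2 cells (log2FC -1.48, SE 0.219, adjusted p = 0.00327). ADAMTS7 overlaps MORF4L1 on the opposite strand, at 45.38 to 53.16 FPKM. On Day 12, ADAMTS7 was at 5.02 to 8.5 FPKM in all 6 libraries. ADAMTS10, a fibrillin-binding protease, was at 5.82 and 8.65 FPKM in static, 2.28 and 2.47 for P-DF and 2.42 and 1.7 for P-IWP2 cells on Day 16. It was called in P-IWP2 cells (log2FC -1.53, SE 0.436, adjusted p = 0.0414) and not in P-DF cells (log2FC -1.36, adjusted p = 0.0635). On Day 12 it was at 6.17 and 7.64 in static, 2.58 and 3.97 in P-DF, and 11.18 (replicate 5) and 3.21 (replicate 6) in P-IWP2 cells.

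ADAMTS18 was the only member called lower on Day 12 in both passaged groups. Its counts on Day 12 were 104 and 85 in static cells, 4 and 9 in P-DF cells and 6 and 11 in P-IWP2 cells, with no overlap and with replicate 5 close to its partner. The changes were called in P-DF cells (log2FC -3.61, SE 0.631, adjusted p = 0.0232) and in P-IWP2 cells (log2FC -3.37, SE 0.611, adjusted p = 0.0365). On Day 16 static cells had 25 and 18 counts and P-DF cells 0 in both libraries, at least 13.9-fold lower (adjusted p = 0.00942). P-IWP2 cells had 3 counts, with a ratio of 15.2 (95% counting interval 4.86 to 76.5, adjusted p = 0.0229).

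ADAMTS19 and ADAMTS17, closely related enzymes, had their highest levels in passaged cells on Day 12. ADAMTS19, known from heart valves, was at 9.05 and 8.92 FPKM in static, 53.64 and 26.97 in P-DF, and 10.43 (replicate 5) and 54.85 (replicate 6) in P-IWP2 cells. The Day 16 levels were 11.79 and 13.66 in static, 8.8 and 8.49 for P-DF and 5.28 and 3.51 for P-IWP2 cells, so the order was turned. The Day 12 log2FC was 2.26 (adjusted p = 0.0916) in P-DF cells and was not called. Without D12 P-IWP2 replicate 5 it was 2.26 in P-DF cells and, from replicate 6 alone, 2.70 in P-IWP2 cells. ADAMTS17 was at 0.13 and 0.19 FPKM in static, 1.53 and 1.23 in P-DF, and 0.06 (replicate 5) and 1.08 (replicate 6) in P-IWP2 cells on Day 12, and at 0.07 to 0.17 in all Day 16 libraries. ADAMTS12 was at 6.28 to 15.49 FPKM and ADAMTS6 at 0.54 to 2.16 apart from 10.51 in replicate 5. ADAMTS16 was at 0 to 0.18 FPKM, and ADAMTS13, the von Willebrand factor protease, at 0.95 to 4.47. None of these 4 was called on either day with all libraries in the model. Without D12 P-IWP2 replicate 5, ADAMTS6 was called in both passaged groups on Day 12 and for P-DF on Day 16, while ADAMTS12 and ADAMTS13 were called for P-IWP2 on Day 16. More ADAMTS genes were then called on both days, and so were more of all genes tested. ADAMTS3 and ADAMTS14 were among them on Day 16 in both groups.

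No TIMP was called on either day with all libraries in the model, and that depended on both D12 P-IWP2 libraries being in it. Without replicate 5, TIMP1 (lower) and TIMP3 (higher) were called on Day 12 in both passaged groups. On Day 16, TIMP1 (lower), TIMP2 and TIMP3 (both higher) were then called in P-DF cells, and TIMP3 (higher) in P-IWP2 cells. Without replicate 6 in its place, TIMP3 on Day 12 in P-IWP2 cells was called in the other direction, lower. TIMP1 (ENSG00000102265, chrX:47582408-47586789), a secreted inhibitor of most MMPs, was at 20.53 and 20.53 FPKM in static, 9.9 and 7.98 in P-DF, and 30.88 (replicate 5) and 9.16 (replicate 6) in P-IWP2 cells on Day 12. The Day 16 levels were 31.68 and 28.7 in static, 14.65 and 14.74 for P-DF and 20.73 and 23.48 for P-IWP2 cells. P-DF libraries were below static ones on both days, with a log2FC of -1.11 (adjusted p = 0.14) on Day 12 and -0.81 (adjusted p = 0.176) on Day 16. TIMP3, the matrix-bound inhibitor that also blocks ADAMTS4 and ADAMTS5, was at 55.32 and 54.04 FPKM in static, 87.71 and 77.43 in P-DF, and 26.01 (replicate 5) and 85.36 (replicate 6) in P-IWP2 cells on Day 12. The Day 16 levels were 59.9 and 55.56, 65.74 and 62.89 and 60.65 and 64.67, with every passaged library above both static ones. The Day 16 differences were small (log2FC 0.38, adjusted p = 0.599 for P-DF and 0.40, adjusted p = 0.579 for P-IWP2 cells). TIMP2, the partner of MMP14, was at 16.12 and 17.59 FPKM in static, 13.25 and 13.33 for P-DF and 20.53 and 12.61 for P-IWP2 cells on Day 12, and at 20.11 to 23.74 in all 6 Day 16 libraries. TIMP4 had at most 4 counts in a library.

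On Day 12 fewer members passed the test than on Day 16. In P-DF cells 3 of 35 were called (8.57%, against 4.01% of all genes), namely MMP2, ADAMTS15 and ADAMTS18, all lower. In P-IWP2 cells 1 was called (2.86%, against 1.66%), ADAMTS18. The member medians were -0.35 and -0.04, beside -0.00 and 0.01 over all genes. The P-DF count rose without D12 P-IWP2 replicate 5 or 6 and fell without any 1 of the other libraries. The P-IWP2 count rose without replicate 5 or 6 and fell without any 1 of the static or P-DF libraries. The calls over all genes tested rose and fell in the same fits.

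With the days combined, P-DF cells differed from static cells in 19 of 35 members (54.3%, against 33.5% of all genes), 15 lower (background 18.9%) and 4 higher (background 14.6%). The model held the 4 libraries of each treatment with day as a term, so the P-IWP2 libraries played no part. By family, 6 of 13 MMPs, 11 of 19 ADAMTS and 2 of 3 TIMPs were called. MMP14, the activator of pro-MMP2, had the smallest SE of the 19 (log2FC -1.91, SE 0.0679, adjusted p = 1.78e-07). The versican-cutting ADAMTS15 (log2FC -1.37, SE 0.0861, adjusted p = 4.34e-06) and ADAMTS5 (log2FC -4.38, SE 0.485, adjusted p = 0.000148) fell, as did the procollagen proteinases ADAMTS14 (log2FC -4.14, SE 0.311, adjusted p = 1.37e-05) and ADAMTS2 (log2FC -2.13, SE 0.211, adjusted p = 7.5e-05). MMP2, MMP16, MMP28, ADAMTS4, ADAMTS7, ADAMTS10, ADAMTS13, ADAMTS18 and ADAMTS20 were also lower. The inhibitors went in different directions: TIMP1 fell (log2FC -0.96, SE 0.111, adjusted p = 0.00019) and TIMP3 rose (log2FC 0.53, SE 0.0948, adjusted p = 0.0023), while TIMP2 had a log2FC of 0.04 (adjusted p = 0.824). The other members called higher were MMP15 (log2FC 0.35, SE 0.101, adjusted p = 0.0255), MMP24 (log2FC 1.01, SE 0.312, adjusted p = 0.0329) and ADAMTS17 (log2FC 1.92, SE 0.601, adjusted p = 0.0342). The MMP24 libraries of these treatments separated on Day 16 and not on Day 12, and those of ADAMTS17 on Day 12 and not on Day 16.

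In P-IWP2 cells 2 members were called over both days (5.71%, against 2.47% of all genes), ADAMTS18 and MMP28, both lower. Without D12 P-IWP2 replicate 5 the count was 16 (background 25.2%), and without replicate 6 it was 4 (background 2.60%). The count fell without any 1 of the static or D16 P-IWP2 libraries, as did the calls over all genes tested. MMP2 had a log2FC of -2.86 (adjusted p = 0.0797), or -3.66 without replicate 5.

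IWP2 after passaging was examined by comparing P-IWP2 with P-DF cells over both days. No member was called by edgeR, DESeq2 or limma (background 0% by edgeR), and 4 of 35 had an unadjusted p under 0.05. Over all genes edgeR called 0, with 1032 at an unadjusted p under 0.05, and DESeq2 called 5. The 4 members were MMP14 (log2FC 0.96, SE 0.384, adjusted p = 0.833), TIMP1 (log2FC 0.82, SE 0.296, adjusted p = 0.833), MMP1 and ADAMTS14, all higher in P-IWP2 cells. On Day 12 this rested on P-IWP2 replicate 5, with MMP14 at 52.11 FPKM against 11.04 in replicate 6 and TIMP1 at 30.88 against 9.16. MMP1 (2.78 against 0.09) and ADAMTS14 (2.65 against 0.05) were alike, and replicate 6 was near the P-DF values. On Day 16 both P-IWP2 libraries were above both P-DF ones for MMP14, TIMP1 and MMP1, and not for ADAMTS14. The 4 members were named after their values were seen. Without a filter on low counts edgeR called 11 members (background 2.45% of 40332 genes). A p that misses the threshold does not show that the treatments gave equal levels.

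From Day 12 to Day 16, MMP24 and TIMP2 rose in both passaged groups. In P-DF cells 4 members were called (11.4%, against 13.6% of all genes): MMP24 (log2FC 2.13, SE 0.284, adjusted p = 0.00243) and TIMP2 (log2FC 1.04, SE 0.148, adjusted p = 0.00317) rose, and ADAMTS7 (log2FC -1.05, SE 0.218, adjusted p = 0.0159) and ADAMTS18 fell. In P-IWP2 cells 14 were called (40%, against 27.0%), 10 lower (background 14.1%) and 4 higher (background 12.9%). In a model of the 4 P-IWP2 libraries alone no member was called, MMP24 included in the loss (background 0%). The 4 that rose were MMP24 (log2FC 3.07, SE 0.293, adjusted p = 0.000671), MMP15 (log2FC 0.74, SE 0.191, adjusted p = 0.0223), ADAMTS15 (log2FC 1.37, SE 0.318, adjusted p = 0.0156) and TIMP2 (log2FC 0.73, SE 0.147, adjusted p = 0.00883). Those that fell were ADAMTS1 (log2FC -2.38, SE 0.534, adjusted p = 0.0134), ADAMTS19 (log2FC -2.57, SE 0.675, adjusted p = 0.0241), ADAMTS2, ADAMTS3, ADAMTS4, ADAMTS5, ADAMTS7, ADAMTS10, MMP2 and MMP16. Scaled by total counts, 2 members rose (background 3.45%) and 5 fell (background 13.0%) in P-DF cells. For P-IWP2, 1 rose (background 5.46%) and 13 fell (background 32.4%), a tilt that all genes shared, and MMP15, ADAMTS15 and TIMP2 lost their calls. In static cells 0 were called by edgeR (background 1.98%), with 6 of 35 at an unadjusted p under 0.05, beside 3836 of 19505 genes. DESeq2 called 1 member and limma 2, beside 1085 and 879 of all genes.

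Without the D12 P-IWP2 replicate 5 library the members called from Day 12 to Day 16 were 13 in static cells (background 18.3%), 21 in P-DF cells (background 30.8%) and 18 in P-IWP2 cells (background 25.1%). In P-IWP2 cells, with replicate 6 alone on Day 12, MMP2 (log2FC -0.34), MMP16, ADAMTS4 and ADAMTS10 were then no longer called. The log2FC of MMP14 was then 1.15 and that of TIMP1 1.57. ADAMTS3 stayed called, with a log2FC of -2.90 with that library and -1.38 without it. Without replicate 6 in its place the counts were 14 (background 18.3%), 21 (background 30.7%) and 21 (background 48.7%). Against the fit of all libraries, the P-IWP2 count fell without either D16 P-IWP2 library and the P-DF count without either D16 P-DF library. The calls over all genes tested fell in the same fits.

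**Figure D5:**
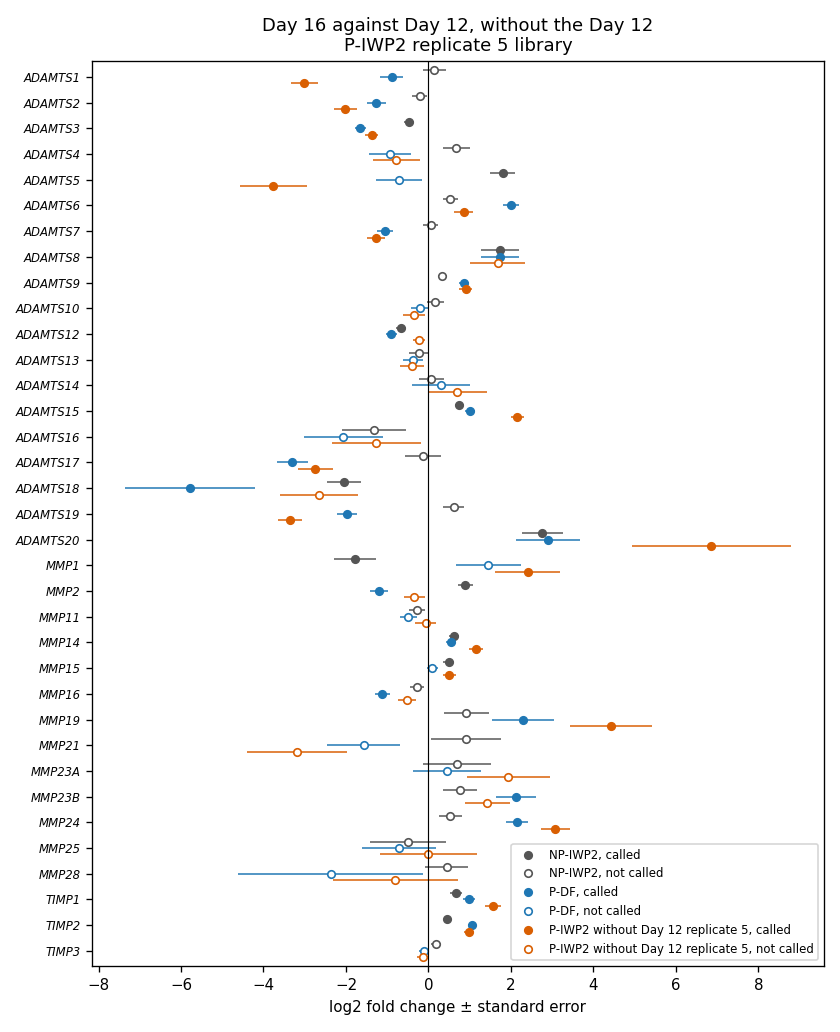
Log2 fold change from Day 12 to Day 16 of each tested member in static, P-DF and P-IWP2 cells, fitted without the D12 P-IWP2 replicate 5 library; bars are standard errors and filled points passed an adjusted p of 0.05. Values of genes near 0 counts, such as ADAMTS20, depend on the model's prior count. MMP24 lies at 2.14 for P-DF and 3.08 for P-IWP2 cells, and ADAMTS19 at -1.97 and -3.35.

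Whether the difference from static cells changed between the days was tested as an interaction. For P-DF cells 0 members were called by edgeR (background 0.482%), with 5 of 35 at an unadjusted p under 0.05, beside 2425 of 19505 genes. DESeq2 called 2 members and limma 1, beside 501 and 203 of all genes. For P-IWP2 cells 2 were called (5.71%, against 1.84%): MMP24 (log2FC 2.54, SE 0.4, adjusted p = 0.0217) and ADAMTS5 (log2FC -8.99, SE 1.85, adjusted p = 0.0472). Without D12 P-IWP2 replicate 5 the counts were 10 (background 8.09%) and 13 (background 8.33%), and without replicate 6 they were 11 (background 8.07%) and 20 (background 31.1%). In the model without replicate 5, the MMP24 difference between days was 1.60 for P-DF and 2.55 for P-IWP2 cells. That of ADAMTS19 went in the other direction, at -2.58 and -3.96.

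Some genes that activate or restrain these enzymes were lower in passaged cells on Day 16. Of 17 listed genes of MMP activation and cell-surface control, 10 were called lower and 0 higher in P-DF cells on Day 16 (median log2FC -1.30), and 9 lower and 0 higher in P-IWP2 cells (median -1.45), beside 9.86% and 9.95% of all genes called lower. On Day 12, 8 were lower in P-DF cells, and 2 were lower and 1 higher in P-IWP2 cells. Of all 19505 genes, 647 were called lower in P-DF cells that day, and 259 lower and 64 higher in P-IWP2 cells. BSG, an inducer of MMPs and abundant in every group, averaged 85.32 FPKM in static cells on Day 16, 97.97 with P-DF and 93.62 with P-IWP2. PLAT, a plasminogen activator, fell (log2FC -6.17, SE 0.972, adjusted p = 0.00439 in P-DF cells). TFPI2, a serine protease inhibitor of the matrix, fell (log2FC -3.56, SE 0.207, adjusted p = 4.11e-05 in P-DF cells and log2FC -2.93, SE 0.198, adjusted p = 8.46e-05 in P-IWP2 cells). RECK, a membrane-anchored MMP inhibitor, fell in P-DF cells (log2FC -1.11, SE 0.179, adjusted p = 0.00479) and in P-IWP2 cells (log2FC -1.24, SE 0.179, adjusted p = 0.00296). PCSK6, a proprotein convertase, fell in P-DF (log2FC -1.30, SE 0.303, adjusted p = 0.0216) and P-IWP2 cells (log2FC -2.28, SE 0.318, adjusted p = 0.00254).

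The related protease families were mixed. On Day 16, the shares of all genes called higher and lower were 5.39% and 9.86% for P-DF and 7.15% and 9.95% for P-IWP2 cells. Of 11 ADAM membrane proteases, 2 were higher and 2 lower in P-DF cells and 1 higher and 2 lower in P-IWP2 cells on Day 16. ADAM12 fell (log2FC -6.83, SE 1.05, adjusted p = 0.00393 in P-DF cells) and ADAM23, a non-catalytic adhesion protein, rose (log2FC 1.35, SE 0.239, adjusted p = 0.00708). Of 6 tested ADAMTS-like genes, which lack the protease domain, 1 was higher and 1 lower in P-DF cells and 2 higher and 1 lower in P-IWP2 cells. ADAMTSL1 fell (log2FC -1.98, SE 0.257, adjusted p = 0.00181 in P-DF cells) and ADAMTSL5 rose (log2FC 2.12, SE 0.39, adjusted p = 0.00848). Of 5 tolloid proteases and enhancers, BMP1, the procollagen C-proteinase, was called lower in P-DF cells (log2FC -0.87, SE 0.197, adjusted p = 0.0191) and 0 were called in P-IWP2 cells. Of 10 tested matrix substrates, 4 were lower for P-DF and 5 for P-IWP2 cells and 0 were higher. Among these, COL1A2 (log2FC -5.24, SE 0.689, adjusted p = 0.00189) and COL3A1 (log2FC -7.08, SE 1.39, adjusted p = 0.0108) fell in P-DF cells.

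Markers of fibroblast, epicardial and hepatic cells moved with the same groups. The 6 fibroblast markers summed to 680.85 and 700.46 FPKM in static cells on Day 12 and 1179.30 and 1216.56 on Day 16. In the passaged libraries they summed to 19.65 to 31.59, apart from 672.80 in D12 P-IWP2 replicate 5. On Day 16, 5 of 6 were called lower for P-DF and 6 of 6 for P-IWP2 cells. The 6 epicardial markers summed to 40.16 to 99.21 in static cells and to 0.30 to 0.84 in passaged ones, apart from 139.90 in that replicate 5, and 6 of 6 were called lower on Day 16 in both groups. The 6 hepatic markers summed to 369.00 to 755.08 in static and 5.71 to 20.07 in passaged cells, again with 6 of 6 called lower on Day 16, and AHSG was listed at 0 in all 4 P-DF libraries. The sum of the 6 endothelial markers was mostly KDR, which is not confined to endothelium, at a mean of 166.9 FPKM in static and 192.1 in P-DF libraries on Day 12 and 39.28 and 14.14 on Day 16. The others were low in passaged libraries apart from D12 P-IWP2 replicate 5, where CDH5 was at 2.6 and ESAM at 2.72 FPKM. Their static means on Day 12 were 5.39 and 3.285. TEK was at a mean of 11.18 in static against 0.055 in P-DF libraries on Day 12 and 10.16 against 0.05 on Day 16. Of the 6, 5 were called lower in P-DF cells over both days (median log2FC -5.11) and 1 in each passaged group on Day 16, or 6 (P-DF) and 4 (P-IWP2) on Day 16 without D12 P-IWP2 replicate 5. Smooth muscle markers summed to 142.84 to 432.84, apart from 895.29 in D16 P-IWP2 replicate 6, with 1 of 4 called lower for P-DF and 1 of 4 higher for P-IWP2 cells on Day 16. The cardiomyocyte markers summed to 2752.88 and 3398.38 in static cells on Day 16 and to 6677.87 to 8737.24 in passaged cells, with 3 of 8 called higher and 1 lower in both groups. On Day 12 they did not separate, at 5074.19 and 4480.35 in static and 4562.00 and 4704.25 in P-DF libraries. The Day 12 P-IWP2 libraries were at 2129.71 (replicate 5) and 4389.64 (replicate 6), and 0 of 8 were called in either group. Leukocyte markers stayed at or below 0.26. In bulk RNA, fewer cells of a type and less RNA per cell cannot be told apart, and the part of these markers in the changes of MMP2, MMP14, the ADAMTS genes and TIMP1 was not tested.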

How the data were processed

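RNA-seq of 12 libraries (3 treatments, 2 days, 2 libraries per group) was used. Per the labels and the study's methods, the authors trimmed reads with cutadapt 1.9.1, aligned them to hg38 with HISAT2 2.0.1 and counted genes with HTSeq 0.6.1. The authors deposited raw counts and FPKM values in a table of 61806 genes, 20417 of them without a symbol. The deposited FPKM equalled count per exon length and library total within 0.005. The strand setting and the DESeq2 version are not given in the sources used here. The labels name a long-read library kit beside these short-read tools.

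Counts were fitted with edgeR 4.0.16 (R 4.3.3; TMM scaling, quasi-likelihood test, Benjamini-Hochberg adjustment over 19505 genes kept by filterByExpr). Days, times and interactions came from 1 model of 6 groups. Treatments over both days came from models of 8 libraries with day as a term. Alternatives were DESeq2 1.42.0, total-count scaling, no filter, limma 3.58.1 on log2(FPKM + 1), a replicate block, a model of only the libraries compared, and leaving out each library. Only the main edgeR fit was tested on simulated data, and the alternatives were not. The members and gene lists were chosen with earlier results of these data known. Named with all values are MMP2, MMP14, ADAMTS1, the TIMPs and each member called in any comparison, other tested members by their FPKM range, and up to 5 called genes per other list. Ratios with counts of 1 to 3 carry an exact 95% interval, and 3 counts is the floor for 0. Depth, 14885589 to 19176239 counts (median 16452289), limits genes with few counts.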

Additional observations from a re-analysis of the deposited data

Results flagged for a closer look

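The difference between P-IWP2 and static cells changed between Day 12 and Day 16 for MMP24 and ADAMTS5 by the interaction test of edgeR. For MMP24 it grew by 2.54 on the log2 scale (SE 0.4, adjusted p = 0.0217), from a Day 12 log2FC of -0.29 to 2.25 on Day 16, and 2 of 2 Day 16 P-IWP2 libraries lay above every static library. For ADAMTS5 the interaction was -8.99 (SE 1.85, adjusted p = 0.0472), or -5.56 without D12 P-IWP2 replicate 5, whose 1039 counts stood beside 46 in replicate 6.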

How the results depend on the processing

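Of 68 gene results called, DESeq2 and the fit without a filter on low counts kept 68, total-count scaling kept 62, limma kept 53, and none reversed. Of the called results each could be run on, the model of only the libraries compared kept 30 and lost 15, and the replicate block kept 16 and lost 4. With each library left out in turn, 199 calls were lost and 533 kept. The cause of these changes was not tested. The calls over all genes tested also differed between these fits, so the counts below are not particular to the members. Those calls are out of 19505 genes, or 40332 with no filter. On Day 12 they were 1593 (DESeq2), 3107 (no filter), 1078 (limma) and 5478 (only the libraries compared) for P-DF. For P-IWP2 they were 636, 1527, 550 and 0. On Day 16 no filter gave 4671 and only the libraries compared 6992 for P-DF, and 4954 and 5103 for P-IWP2. Over both days DESeq2 gave 1488 and no filter 1506 for P-IWP2. From Day 12 to Day 16 static cells gave 1085 (DESeq2), 2045 (no filter), 879 (limma) and 5075 (libraries compared). P-DF cells gave 3122 (DESeq2), 3202 (total counts), 3830 (no filter) and 6286 (libraries compared). P-IWP2 cells gave 6411 (no filter), 6118 (limma) and 0 (libraries compared). The interaction gave 501 (DESeq2), 1124 (no filter) and 203 (limma) for P-DF. For P-IWP2 it gave 1389 (DESeq2), 550 (total counts) and 2732 (no filter). Members called, in the order of the comparisons, were as follows. Passaged against static cells on Day 12 gave 3 for P-DF (DESeq2 9, no filter 21, limma 5, only the libraries compared 20, libraries left out 0 to 18) and 1 for P-IWP2 (4, 12, 2, 0, and 0 to 19). Day 16 gave 11 for P-DF (no filter 17, only the libraries compared 22, libraries left out 2 to 20) and 12 for P-IWP2 (20, 19, and 5 to 22). Over both days P-DF gave 19 (libraries left out 16 to 19) and P-IWP2 gave 2 (DESeq2 8, no filter 9, libraries left out 0 to 16), and P-IWP2 against P-DF gave 0 (no filter 11, libraries left out 0). Day 16 against Day 12 gave 0 in static cells (DESeq2 1, no filter 11, limma 2, only the libraries compared 17, libraries left out 0 to 14), 4 in P-DF (DESeq2 11, total counts 7, no filter 21, only the libraries compared 20, libraries left out 2 to 21) and 14 in P-IWP2 cells (no filter 24, limma 8, only the libraries compared 0, libraries left out 3 to 21). The interaction gave 0 for P-DF (DESeq2 2, no filter 10, limma 1, libraries left out 0 to 11) and 2 for P-IWP2 (DESeq2 8, total counts 4, no filter 16, libraries left out 0 to 20).

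No value that changed sign was called in the fit reported, but some were under an alternative: with no filter, MMP14 in P-IWP2 cells on Day 12 (-0.56, adjusted p = 0.0412), without D12 P-IWP2 replicate 5, MMP14 (-1.89), TIMP1 (-1.07) and TIMP3 (0.73) in P-IWP2 cells on Day 12 and TIMP3 (0.53) over both days, and without replicate 6, TIMP3 on Day 12 (-1.20). ADAMTS1 on Day 12 was -0.06 (P-DF) and -0.14 (P-IWP2) by limma, and ranged from -0.51 to 0.55 and from -1.04 to 0.71 with libraries left out. TIMP2 was -0.07 by total counts and by limma in P-IWP2 cells on Day 16, and over both days -0.12 and -0.11 (P-DF) and -0.05 and -0.06 (P-IWP2). TIMP3 in P-IWP2 cells was -0.21 on Day 12 and -0.04 over both days by limma. With libraries left out, P-IWP2 values on Day 12 ranged from -1.89 to 0.12 for MMP14, -1.07 to 0.46 for TIMP1, -0.33 to 0.15 for TIMP2 and -1.20 to 0.73 for TIMP3. Over both days they ranged from -0.51 to 0.09 for TIMP1, -0.01 to 0.19 for TIMP2 and -0.19 to 0.53 for TIMP3, and P-DF values from -0.04 to 0.11 for TIMP2. Total-count scaling moved the median of all genes on Day 16 to -0.25 (P-DF) and -0.31 (P-IWP2).

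With the replicate number as a block, Day 16 against Day 12 gave 0, 5 and 12 members in static, P-DF and P-IWP2 cells, and the interaction 0 and 3. Of all 19505 genes, the same fit called 154, 1856 and 4659, and 12 and 388 for the interaction. The numbers do not pair the samples (correlations of deviations 0.075, -0.0015 and -0.031). Passaged and static groups share no replicate numbers.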
